A study of Mus musculus with 27 samples.

Results

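The cytosolic ribosomal protein genes encode the proteins of the ribosomes that translate nuclear mRNAs. They were taken by gene symbol (Rpl and Rps followed by a number, with the suffixes a, x, l or l1 allowed, and Rplp0, Rplp1, Rplp2 and Rpsa) and by a level of at least 1 CPM (a read count scaled to the size of its library) in at least 3 of the 27 libraries. A total of 82 symbols fitted the pattern and 81 of them passed the level, 49 of the large and 32 of the small subunit, out of 19069 genes in the table and 13297 genes at that level. The member just inside the level was Rpl39l, a paralogue of Rpl39, which reached it in 5 libraries and lay between 0 and 1.88 CPM. The symbol just outside was Rpl3l, a paralogue of Rpl3, which reached it in 0 libraries, with a highest value of 0.391 CPM. The symbol pattern leaves out several cytosolic ribosomal protein genes with other names (among them Rps3a1, Rpl36al, Fau and Gnb2l1, now named Rack1), which are described apart.

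The 27 libraries hold RNA of mouse macrophages grown in culture from bone marrow, in 9 groups of 3. Marrow cells of the femur and tibia of C57BL/6 mice, with no genetic alteration named, received 0 Gy, 5 Gy of FLASH protons or 5 Gy of a standard proton beam. In FLASH mode the beam gives its dose far faster than a standard beam. All cells then had 7 days with CSF-1 at 10 ng/ml, the growth factor that turns marrow precursors into macrophages, and 2 days in control medium (M0), with LPS at 100 ng/ml (M1, the inflammatory state) or with IL-4 at 20 ng/ml (M2, the alternatively activated state). The beam therefore met marrow cells before the culture with CSF-1, and not the macrophages grown from them. The age and sex of the mice are not given. Each title carries a code that all 9 libraries of a replicate number share, and the labels do not say what it stands for. Nothing in the labels says whether the 3 libraries of a group came from separate mice or cultures, so that the p-values below measure the spread between these libraries.

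Libraries held between 20.7 M and 25.8 M assigned reads. All 9 macrophage markers in the table were detected in all 27 libraries, among them Csf1r, the CSF-1 receptor, at 784 to 2257 CPM, and Cd68 at 518 to 1211 CPM. The lowest was Cd163, at 0.512 to 36.4 CPM. In 22 libraries the LPS and IL-4 response genes followed the label. In 5 they did not, on axes scaled so that non-irradiated M0 averages 0 and non-irradiated M1 (LPS axis) or M2 (IL-4 axis) averages 1. The libraries labelled FLASH M2 1 and standard M2 1 lay at 1.0 and 1.1 on the LPS axis. Those labelled FLASH M0 1 and standard M1 1 lay at 0.65 and 0.73 on the IL-4 axis, and that labelled FLASH M1 1 at -0.14 and -0.22 on the LPS and IL-4 axes. All 5 are irradiated and carry replicate number 1, and the values of irradiated cells below are given with them and, where stated, also without them. Cdkn1a, the p53 target that halts the cell cycle, was higher in all 18 irradiated than in all 9 non-irradiated libraries, with a log2 change of 1.36 ± 0.09 (SE), 2.57-fold, adjusted p = 1.49e-09 (limma).

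A ribosome consists of a large and a small subunit, each assembled in the nucleolus from ribosomal RNA and its own set of ribosomal proteins. Because the proteins are needed in equal amounts, their genes are known for coordinated expression. Their mRNAs begin with a run of C and T bases (the 5' terminal oligopyrimidine, or TOP, motif), through which mTORC1 and the RNA-binding protein LARP1 set how much they are translated, and MYC promotes transcription of many genes of ribosome assembly. Ribosomal proteins also act outside the ribosome: RPL5 and RPL11, together with the 5S ribosomal RNA, bind the ubiquitin ligase MDM2 when assembly is disturbed, which stabilises p53. Sequencing of mRNA measures the level of each transcript and not ribosomes or translation.

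The TOP run lies at the transcription start. RefSeq promoters (GRCm38.p6, the most upstream start of each gene) were matched for 60 of the 81 members. The 30 bases around the start, 15 on each side, are shown for the members on which the results below turn most, with the run of 8 or more C and T bases in capitals. Rps24, Rpl24 and Rplp2 were called with LPS, Rps26 and Rps18 with IL-4, and the last 5 after irradiation.
Rps24, chr14:24490663-24490692, + strand: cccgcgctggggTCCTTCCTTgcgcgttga
Rpl24, chr16:55966260-55966289, + strand: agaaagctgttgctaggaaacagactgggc
Rplp2, chr7:141447636-141447665, + strand: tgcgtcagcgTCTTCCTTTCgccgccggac
Rps26, chr10:128626492-128626521, - strand: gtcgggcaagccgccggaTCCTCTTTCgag
Rps18, chr17:33955651-33955680, - strand: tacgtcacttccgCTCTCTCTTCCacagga
Rps27, chr3:90213634-90213663, - strand: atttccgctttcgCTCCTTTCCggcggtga
Rps6, chr4:86857353-86857382, - strand: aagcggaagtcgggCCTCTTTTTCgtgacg
Rps9, chr7:3704026-3704055, + strand: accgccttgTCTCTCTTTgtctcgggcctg
Rpl7a, chr2:26910792-26910821, + strand: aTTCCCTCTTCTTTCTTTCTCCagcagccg
Rpl18, chr7:45718056-45718085, + strand: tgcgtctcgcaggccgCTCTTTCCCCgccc

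Of these 10 windows, that of Rpl24 holds no such run at the RefSeq start. A run of at least 8 C and T bases, on the gene's strand, touching the 10 bases on either side of the start was found in 27 of the 60 matched members (45.0%) and in 13.5% of 27025 promoters. The shares were 43.2% in the large and 47.8% in the small subunit. The letters CGGAAG, the core of the ETS-family motif, were sought on either strand of 300 bases, 250 before and 50 after the start. They stood in 41 of the 60 members (68.3%) and in 17.2% of all promoters. The letters of the C and T run and of the reverse complement of CGGAAG can overlap. Among the 10 matched members lower after irradiation 7 had the run, and among the 7 matched members higher with IL-4 3 had it. These are descriptions of the sequence and say nothing of binding.

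Together the 81 members took 1.67% to 2.90% of a library. In non-irradiated cells their share was 2.28% ± 0.0478 (SD, n = 3) in control medium, 1.99% ± 0.344 with LPS and 2.71% ± 0.165 with IL-4. The libraries were at 2.26%, 2.34% and 2.25% in control medium, at 1.93%, 1.67% and 2.36% with LPS and at 2.90%, 2.59% and 2.65% with IL-4. The IL-4 libraries lay above all others without irradiation, and the LPS libraries spread across the control level. FLASH groups were at 1.93% ± 0.148, 1.95% ± 0.101 and 2.04% ± 0.104 in M0, M1 and M2, and standard groups at 2.08% ± 0.102, 2.04% ± 0.177 and 2.16% ± 0.317. Without the 5 libraries at odds the FLASH groups were at 1.94%, 1.93% and 2.09% (n = 2 each) and the standard groups at 2.08% (n = 3), 1.94% and 2.33% (n = 2 each). Standard M1 and M2 thus lay farther apart without them. Over all states the share was 2.33% ± 0.370 without irradiation, 1.97% ± 0.115 after FLASH and 2.09% ± 0.196 after standard protons (SD, n = 9 each), and without the 5 libraries it was 1.99% ± 0.143 (n = 6) after FLASH and 2.11% ± 0.187 (n = 7) after standard protons. In bulk RNA, a lower share of cells that express a gene and less of its RNA per cell cannot be told apart.

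**Figure D1:**
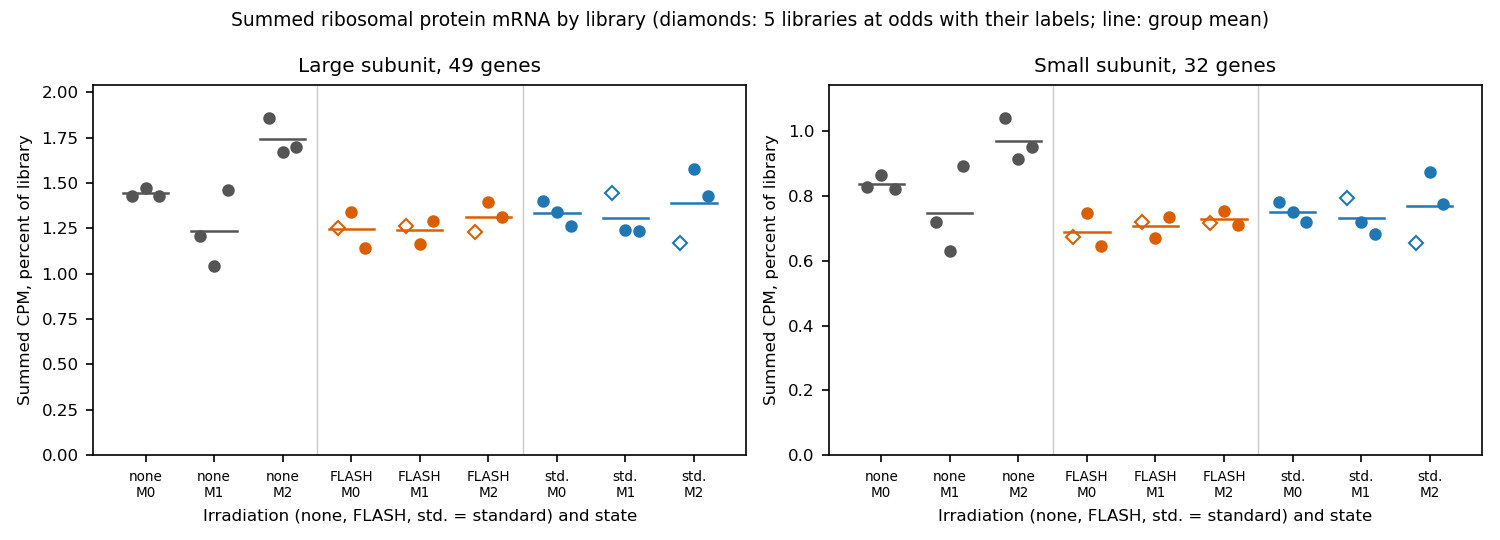
Summed level of the large subunit and small subunit members as a percentage of each library (vertical axis) in the 9 groups (horizontal axis), 1 point a library and a bar at the mean of 3, with open diamonds for the 5 libraries whose response genes go against the label. Non-irradiated M2 libraries, at 2.59% to 2.90% for all members, are the highest group.

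The proportion of large to small subunit genes varied within a narrow range. Its libraries separated by state without irradiation, and by irradiation in M0 and M1 only. The ratio of their summed levels ranged from 1.64 to 1.85 over the 27 libraries. Without irradiation it was 1.72 ± 0.023 in M0, 1.66 ± 0.016 in M1 and 1.80 ± 0.023 in M2 (SD, n = 3). The libraries of these states did not overlap, at 1.70 to 1.74, 1.64 to 1.67 and 1.78 to 1.83. The irradiated groups had means between 1.75 and 1.81, and between 1.74 and 1.85 without the 5 libraries at odds. Every irradiated library labelled M0 (1.75 to 1.85) or M1 (1.72 to 1.82) lay above every non-irradiated library of its state. In M2 the ranges overlapped. No test was run on the ratio. The large subunit went from 1.44% ± 0.0233 in M0 to 1.74% ± 0.10 in M2 of the non-irradiated cells, and the small subunit from 0.839% ± 0.0246 to 0.969% ± 0.0649.

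LPS against control medium in non-irradiated cells asked which members respond to the inflammatory stimulus. Of 81 members, limma called 2 higher and 1 lower at an adjusted p below 0.05, where 17.4% of all genes tested were called (9.87% higher and 7.54% lower). The called share of the members, 3.70%, was below that of all genes. The median change of the members was -0.04 on the log2 scale (-0.06 for the large and -0.02 for the small subunit), with 31 above and 50 below 0, beside -0.01 for all genes. All log2 changes are of log2(CPM + 0.5), which understates changes of genes near 0. With every library rescaled to the same column sum, the median LPS change of all genes moved to -0.15, the share of higher genes among all those called from 56.7% to 29.6%, and 9 members were called, 1 higher and 8 lower.

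Rps24, a small subunit protein needed for the maturation of the small subunit's RNA, had the largest rise. Its level was 237, 254 and 254 CPM in control medium and 362, 417 and 420.3 CPM with LPS, a log2 change of 0.68 ± 0.15 (SE), 1.61-fold, adjusted p = 0.0066. Every LPS library was above every control library. Rpl24, a large subunit protein at the contact between the subunits, went from 222, 230.0 and 229.6 CPM to 342, 279 and 384 CPM, a log2 change of 0.55 ± 0.17 (SE), 1.46-fold, adjusted p = 0.0289, again without overlap. Rplp2, a protein of the ribosomal stalk that recruits translation factors, fell. It stood at 246, 278 and 306 CPM in control medium and 202, 188 and 192 CPM with LPS, a log2 change of -0.51 ± 0.17 (SE), 0.704-fold, adjusted p = 0.0415, also without overlap. Rps24 was called in all 17 alternative settings and leave-one-out fits, Rpl24 in 11 and Rplp2 in 9 of them. Leaving out non-irradiated M0 replicate 1, 2 or 3, or M1 replicate 1 or 3, left 1 called member each. The other stalk genes were not called: the change was -0.28 (adjusted p = 0.203) for Rplp0 and -0.25 (adjusted p = 0.308) for Rplp1.

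Several further members had LPS and control libraries that did not overlap without passing the test. Rpl10a, a protein at the exit site for tRNA, stood at 258, 212 and 223 CPM in control medium and at 133, 103 and 158 CPM with LPS, with a log2 difference of -0.83 ± 0.38 (SE, adjusted p = 0.137). The differences were -0.51 (adjusted p = 0.112) for Rpl3, at the peptidyl transferase centre, -0.47 (adjusted p = 0.0973) for Rpl5 and -0.48 (adjusted p = 0.072) for Rpsa. Rps20, chosen here after its values were seen, was higher at 264, 246 and 317 CPM against 189, 242 and 179 CPM, with a difference of 0.44 (adjusted p = 0.14). The non-irradiated libraries are the same when the 5 libraries at odds with their labels leave the fit, and the spread is then estimated from fewer libraries over 13181 genes tested. In that fit 12 members were called, 3 higher and 9 lower. Rpl10a (adjusted p = 0.000484), Rpl3 (0.0118), Rpl5 (0.00999), Rpsa (0.0127) and Rps20 (0.0112) were among them. The same fit called 35% of all genes with LPS, against 17.4% with all libraries, and 14.8% of the members. Mitochondrially encoded transcripts summed to 4968 to 5615 CPM with LPS and to 11319 to 12522 CPM in control medium, with 13 of 13 called lower and none at 0. Their part in the result was not tested.

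**Figure D2:**
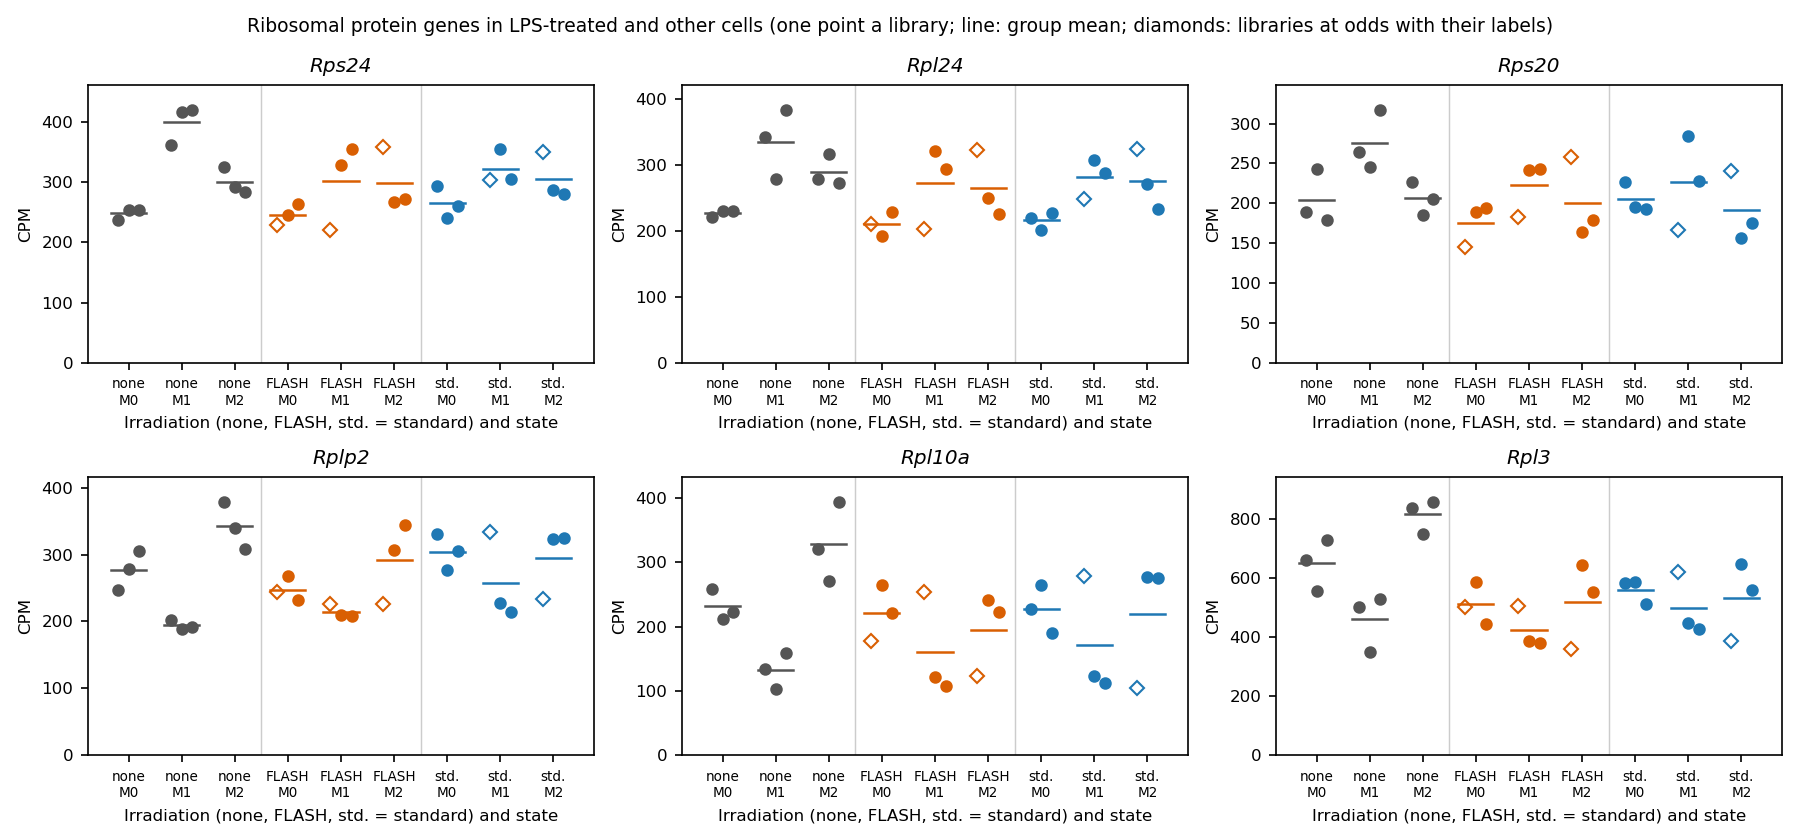
CPM in each library (vertical axis, from 0) of Rps24, Rpl24, Rps20, Rplp2, Rpl10a and Rpl3 in the 9 groups (horizontal axis), with a bar at each group mean and open diamonds for the 5 libraries at odds with their labels. Rpl10a lies at 103 to 158 CPM in the non-irradiated M1 libraries and at 212 to 394 CPM in the other non-irradiated libraries.

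IL-4 against control medium in non-irradiated cells gave rises alone among the called members. Limma called 9 members higher and 0 lower, which is 11.1% of the 81, where 9.83% of all genes were called (4.93% higher and 4.9% lower). With equal column sums 40.0% of the called genes were higher, against 50.2%. At an unadjusted p below 0.05 the counts were 29 higher and 0 lower. Here and below, counts at an unadjusted p stand without the share of all genes at that threshold. They cannot be set against the shares at an adjusted p. The median change of the members was 0.32 (0.34 for the large and 0.25 for the small subunit), with 77 above and 4 below 0, beside a median of -0.01 for all genes. The called members were 6 large subunit genes (Rpl12, Rpl41, Rpl29, Rpl32, Rpl19 and Rpl7l1) and 3 small subunit genes (Rps26, Rps18 and Rps15a).

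Rps26, which lies where mRNA leaves the small subunit, was measured at 245, 222 and 180.2 CPM in control medium and at 358, 324 and 356 CPM with IL-4, a log2 change of 0.69 ± 0.17 (SE), 1.61-fold, adjusted p = 0.0147. Rps18, in the head of the small subunit, went from 300.1, 289.9 and 254 CPM to 480.1, 403 and 447 CPM, a log2 change of 0.66 ± 0.21 (SE), 1.58-fold, adjusted p = 0.0498. In both genes all IL-4 libraries were above all control libraries. Rpl12, at the base of the stalk, was low at 24.5, 9.24 and 13 CPM in control medium and 32.7, 21.6 and 39.3 CPM with IL-4, a log2 change of 1.05 ± 0.32 (SE), 2.07-fold, adjusted p = 0.0397. Its groups overlapped, because the first control library was above one IL-4 library. Rpl41 went from 368, 413 and 391 CPM to 640.2, 560.2 and 496 CPM, a log2 change of 0.53 ± 0.14 (SE), 1.44-fold, adjusted p = 0.0194. Rpl29 was at 222, 214 and 206 CPM and 328, 300.1 and 298 CPM, a log2 change of 0.53 ± 0.14 (SE), 1.44-fold, adjusted p = 0.0202, and neither gene's groups overlapped. The other 4 rises were 0.47 (adjusted p = 0.0488) for Rps15a, 0.45 (adjusted p = 0.0462) for Rpl32, 0.42 (adjusted p = 0.0369) for Rpl19 and 0.41 (adjusted p = 0.0371) for Rpl7l1.

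Leaving out any 1 of the 6 non-irradiated libraries compared lowered the number of members called with IL-4. It was 0 without M0 replicate 3 or M2 replicate 1, 2 without M0 replicate 2 or M2 replicate 2, and 3 without M0 replicate 1 or M2 replicate 3. Rps26 was called in all but the first 2 of these. In the fit without the 5 libraries at odds, which changes here the estimate of the spread and the number of genes tested, 33 members (40.7%) were called, where 26.2% of all genes were called. In IL-4 libraries the 9 macrophage markers summed to 6845 to 8315 CPM against 19929 to 22917 CPM in control medium, with 4 of 9 called lower and none at 0. Their part in the result was not tested.

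LPS against IL-4 in non-irradiated cells gave more called members than any other of the 12 comparisons. Limma called 30 members lower and 1 higher with LPS than with IL-4, where 30.5% of all genes were called (14.6% lower and 15.9% higher). With equal column sums 39.5% of the called genes were higher, against 52.1%. The members' median difference was -0.39 (-0.41 for the large and -0.37 for the small subunit), with 73 of 81 below 0, while 6680 of all 13297 genes were below 0. The called members were 21 large subunit genes, all lower, and 9 lower and 1 higher small subunit genes.

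Rpl10a had the largest difference, at 133, 103 and 158 CPM with LPS and 321, 271 and 394 CPM with IL-4, a log2 change of -1.32 ± 0.38 (SE), 0.4-fold, adjusted p = 0.0143. Rpl12 followed with a log2 change of -1.10 ± 0.32 (SE), 0.467-fold, adjusted p = 0.0139. Rpl5, which carries the 5S RNA into the large subunit, was at 13.5, 13.8 and 13.8 CPM with LPS and at 27.6, 25 and 30.9 CPM with IL-4, a log2 change of -0.99 ± 0.20 (SE), 0.502-fold, adjusted p = 0.00132. For all of these genes every LPS library was below every IL-4 library. Rpl22l1, a paralogue of Rpl22, was at 28.2, 24.9 and 25.4 CPM and 46.2, 49.5 and 50.9 CPM, with a difference of -0.89 (adjusted p = 0.0445), and Rpl3 differed by -0.85 (adjusted p = 0.00807).

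All 3 stalk genes were lower with LPS than with IL-4. The difference was -0.81 (adjusted p = 0.00186) for Rplp2, -0.61 (adjusted p = 0.0101) for Rplp1 and -0.49 (adjusted p = 0.0215) for Rplp0. Rps24 was the exception, higher with LPS by 0.41 (adjusted p = 0.0469). Its call was lost in 10 of 17 alternative settings and leave-one-out fits, whereas Rpl5, Rplp2 and Rps26 were called in all 17. When every library was rescaled to the same column sum, 50 members were called, all lower. The number called was 9 without non-irradiated M1 replicate 2, 12 without non-irradiated M2 replicate 1 and 48 without non-irradiated M1 replicate 3. It was 49 (60.5%) without the 5 libraries at odds, where 42.6% of all genes were called. Macrophage markers, as given above, were also lower with IL-4, and 7 of 9 were called higher with LPS than with IL-4, whose part in the result was not tested. This comparison shares its libraries with both comparisons above.

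**Figure D3:**
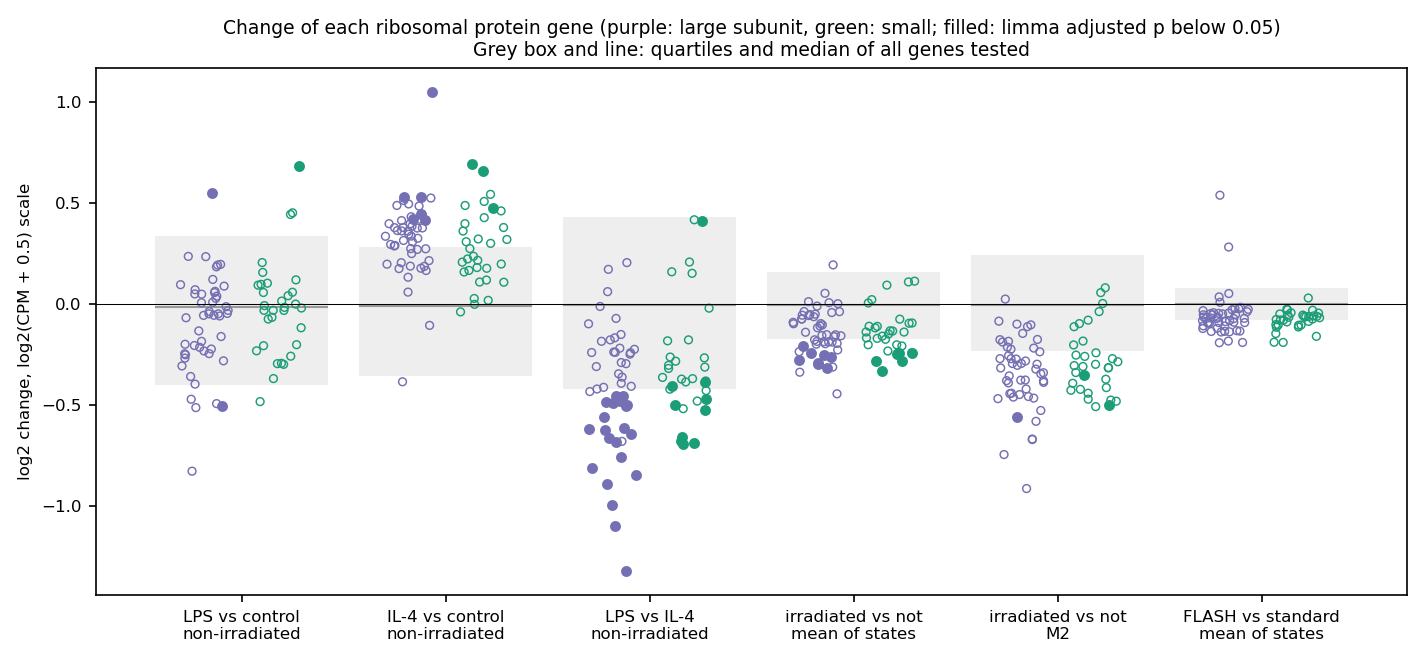
Log2 changes of the 81 members (vertical axis, difference of mean log2(CPM + 0.5)) in 6 comparisons (horizontal axis), large and small subunit apart, 1 point a gene, with filled points for genes called at an adjusted p below 0.05 and grey boxes for the quartiles of all genes tested. The IL-4 values lie mostly above 0 (77 of 81) and those of irradiated against non-irradiated cells mostly below 0 (71 of 81).

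The effect of irradiation was taken as the average over M0, M1 and M2 of all irradiated minus non-irradiated groups, with FLASH and standard protons weighted equally. Limma called 14 members lower and 0 higher, where 12.3% of all genes were called (6.69% lower and 5.66% higher). At an unadjusted p below 0.05, without the share of all genes at that threshold, the counts were 33 lower and 1 higher. The median change of the members was -0.15 in both subunits, with 71 of 81 below 0, beside a median of -0.01 over all genes. The 14 were 8 large subunit genes (Rpl10, Rpl18, Rpl8, Rpl7, Rpl7a, Rpl14, Rpl9 and Rpl30) and 6 small subunit genes (among them Rps27, Rps6, Rps15a, Rps9 and Rps3). The large subunit member nearest to the median of its subunit was Rpl31 at -0.15 (adjusted p = 0.319).

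Rps27, a zinc finger protein of the small subunit, had the largest called fall. Its lowest, median and highest levels were 92.1, 101 and 149 CPM in the 9 non-irradiated libraries and 60.0, 88.5 and 111 CPM in the 18 irradiated ones, a log2 change of -0.33 ± 0.09 (SE), 0.793-fold, adjusted p = 0.0161. Rpl18 of the large subunit went from 254, 369 and 452 CPM to 239, 275 and 358 CPM, a log2 change of -0.30 ± 0.08 (SE), 0.813-fold, adjusted p = 0.0154. In both genes the groups overlapped. The irradiated median of Rps27 lay below all 9 non-irradiated libraries and that of Rpl18 below 8 of 9.

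Rps6, the target of the S6 kinases downstream of mTORC1, stood at 383, 486 and 656 CPM (lowest, median and highest) without and at 359, 418 and 513 CPM with irradiation, a log2 change of -0.28 ± 0.08 (SE), 0.822-fold, adjusted p = 0.0165. Rps9, which lines the mRNA entry site, was at 471, 541 and 694 CPM without and at 419, 477 and 558 CPM with irradiation, a log2 change of -0.24 ± 0.06 (SE), 0.845-fold, adjusted p = 0.0146. Rpl7a went from 258, 359 and 429.9 CPM to 263, 291 and 343 CPM, a log2 change of -0.26 ± 0.07 (SE), 0.834-fold, adjusted p = 0.0187. The ranges of all 3 overlapped, and all 14 falls were small, between 0.793-fold and 0.865-fold.

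Of the remaining falls, Rpl8, near the peptidyl transferase centre, changed by -0.29 (adjusted p = 0.0271) and Rpl10, which joins the large subunit late in assembly, by -0.32 (adjusted p = 0.0483). Rpl7 changed by -0.28 (adjusted p = 0.0201) and Rps3, of the mRNA entry site, by -0.24 (adjusted p = 0.0484). When the 5 libraries at odds with their labels were left out, the change was -0.32 (adjusted p = 0.0152) for Rps27, -0.29 (0.00739) for Rpl18, -0.26 (0.0197) for Rps6, -0.23 (0.0147) for Rps9 and -0.25 (0.0189) for Rpl7a. In that fit 23 members (28.4%) and 22.8% of all genes were called. Of the members 22 were lower and 1, Rplp1, higher, at 0.21 (adjusted p = 0.018). With all libraries Rplp1 was at 0.19 (adjusted p = 0.147).

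The count of 14 moved most with the non-irradiated M1 libraries, being 5 without replicate 3 and 25 without replicate 2 of that group. It was 22 without standard M1 replicate 1, 6 without non-irradiated M2 replicate 1, 7 without M0 replicate 1, 8 without M1 replicate 1 or M2 replicate 3, and 9 without non-irradiated M0 replicate 2 or 3, FLASH M0 replicate 3 or standard M0 replicate 2 or 3. Over 37 alternative settings and leave-one-out fits Rpl18 was called in 37 and Rps27, Rps6, Rps9 and Rpl7a in 36 each, whereas Rpl10 and Rps3 were called in 10. With replicate numbers 2 and 3 only, 2 members were called.

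**Figure D4:**
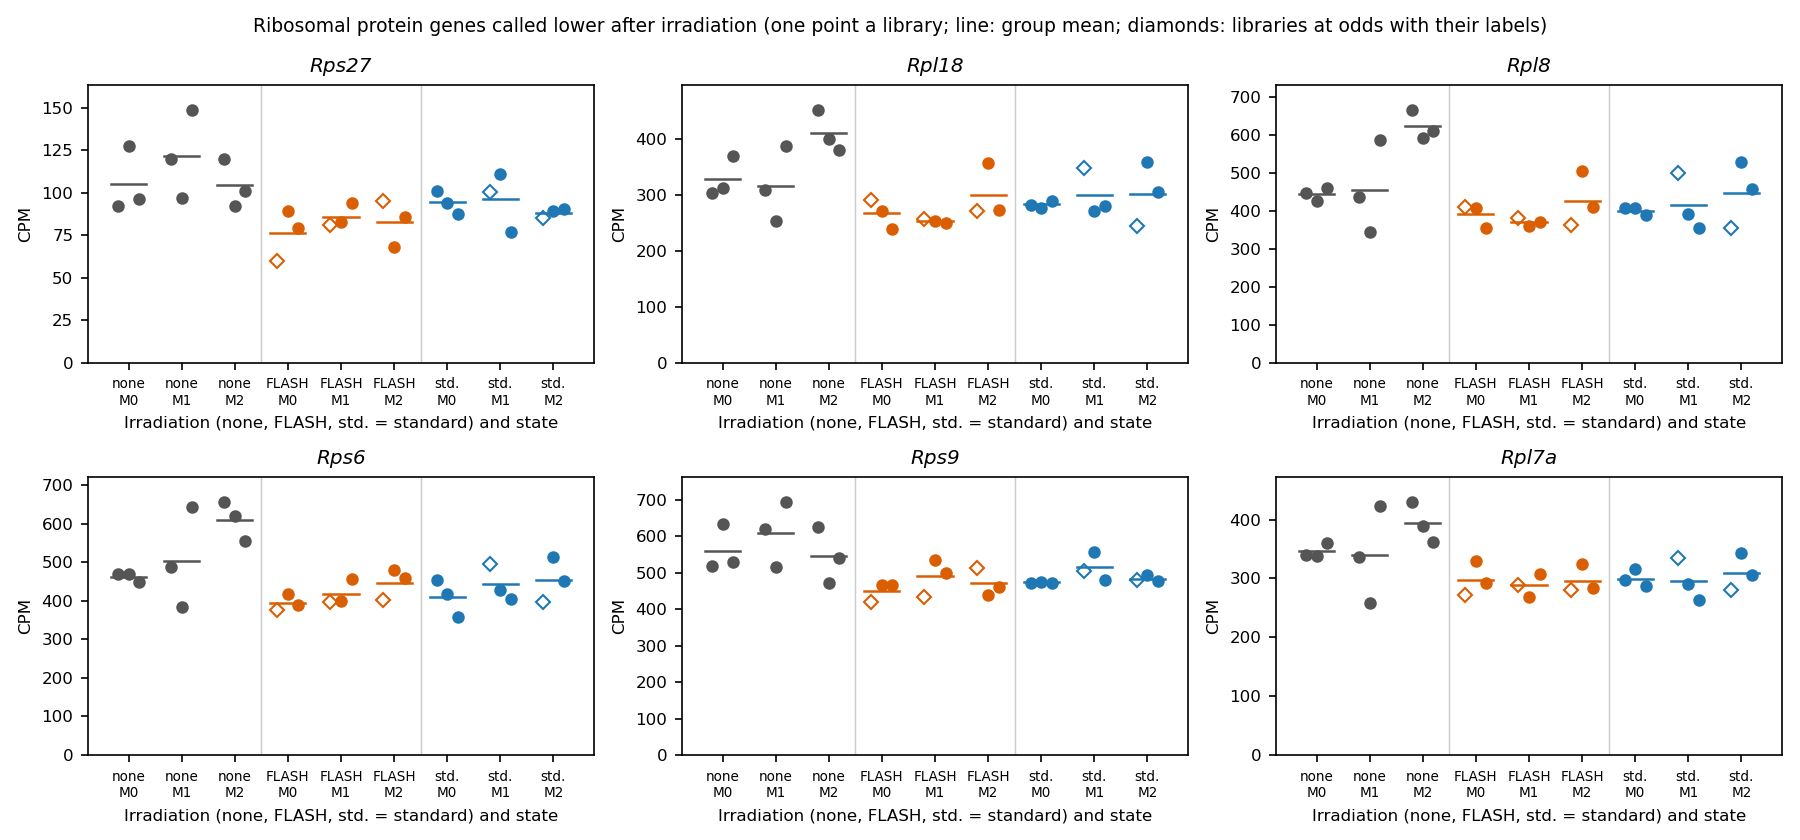
CPM in each library (vertical axis, from 0) of Rps27, Rpl18, Rpl8, Rps6, Rps9 and Rpl7a in the 9 groups (horizontal axis), with a bar at each group mean and open diamonds for the 5 libraries at odds with their labels. The irradiated libraries of Rps27 span 60.0 to 111 CPM and the non-irradiated ones 92.1 to 149 CPM.

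Markers of marrow cell types other than macrophages were summed in each library. The 10 B lineage markers in the table summed to 41.3 to 211 CPM without and 11.1 to 38.1 CPM with irradiation, with 8 of 8 tested called lower. Neutrophil markers summed to 79.4 to 1272 CPM against 41.6 to 291 CPM, with 11 of 15 called lower, and mast cell and basophil markers to 5.31 to 24.2 CPM against 0.767 to 4.56 CPM, with 5 of 5 tested called lower. Monocyte markers, which include Chil3 of the IL-4 list, summed to 260 to 5805 CPM without and 96.8 to 7466 CPM with irradiation. Without irradiation, after FLASH and after standard protons they were at 260 to 1145, 96.8 to 7466 and 102 to 159 CPM in M0. In M1 they were at 354 to 435, 111 to 212 and 128 to 6702 CPM. In M2 the ranges were 3786 to 5805, 201 to 6244 and 211.5 to 6525 CPM. The libraries labelled FLASH M0 1 and standard M1 1, at odds with their labels, held 7466 and 6702 CPM. FLASH M2 1 and standard M2 1, also at odds, held 201 and 211.5 CPM. Dendritic cell markers summed to 87.4 to 1047 against 132 to 927 CPM, and T and NK cell markers to 13.7 to 181 against 23.8 to 112 CPM. These ranges overlapped, as did those of erythroid and megakaryocyte, stem and progenitor, and stromal markers. Calls in these further lists are not reported here. Proliferation markers summed to 537 to 1988 CPM without and 697 to 1192 CPM with irradiation, with 0 of 20 called by limma. By label, the M1 sums were higher with irradiation and did not overlap. They were 537 to 647 CPM without irradiation, 727 to 1019 CPM after FLASH and 697 to 1018 CPM after standard protons. In M0 they were 1007 to 1453, 754 to 1068 and 926 to 1062 CPM, which overlapped. The ranges in M2 also overlapped, at 868 to 1988, 809 to 1192 and 956 to 1099 CPM. No marker of these lists was at 0 in all irradiated or in all non-irradiated libraries. Their part in the falls was not tested.

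FLASH alone against no irradiation gave 9 members called lower and 0 higher, where 7.72% of all genes were called (4.47% lower and 3.26% higher). At an unadjusted p below 0.05, again without the share of all genes at that threshold, the counts were 36 lower and 0 higher. Standard protons gave 0 called members with limma, where 7.88% of all genes were called (4.52% lower and 3.36% higher), with 15 lower and 1 higher at an unadjusted p below 0.05. The median change was -0.19 for FLASH and -0.13 for standard protons. Both comparisons share the same 9 non-irradiated libraries.

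Rps27 changed by -0.43 ± 0.10 (SE, adjusted p = 0.0118) with FLASH, where its lowest, median and highest levels were 60.0, 82.5 and 95.1 CPM. With standard protons these were 77, 90.2 and 111 CPM, a difference of -0.24 (adjusted p = 0.167). Rpl18 fell by 0.35 (adjusted p = 0.0192) with FLASH, and its difference with standard protons was -0.24 (adjusted p = 0.108). For Rps15a the values were -0.34 (adjusted p = 0.017) and -0.15 (adjusted p = 0.32), and for Rpl8 -0.34 (adjusted p = 0.0397) and -0.25 (adjusted p = 0.126). Rps6, Rpl7, Rpl9, Rpl7a and Rps9 were also called lower with FLASH, with changes of -0.31 to -0.27, and had differences of -0.26 to -0.20 with standard protons. FLASH gave 12 called members (14.8%) without the 5 libraries at odds, where 14.5% of all genes were called, and Rps6 (-0.26, adjusted p = 0.0641), Rpl7 (0.0662), Rpl9 (0.0511) and Rpl7a (0.0673) were no longer among them. In the same fit standard protons gave 5 called members (6.17%), 4 lower and 1 higher, where 18% of all genes were called. Leaving out non-irradiated M1 replicate 3 or M2 replicate 1 gave 3 called members with FLASH, and leaving out non-irradiated M1 replicate 2 gave 22. The FLASH count was 14 without FLASH M2 replicate 2, 4 without non-irradiated M0 replicate 2, and 5 without any one of non-irradiated M0 replicates 1 and 3, M1 replicate 1, FLASH M0 replicate 3, FLASH M1 replicates 1 and 2 and FLASH M2 replicate 1. The standard count was 6 without non-irradiated M1 replicate 2, 2 without standard M1 replicate 1, and 1 without non-irradiated M0 replicate 2, M2 replicate 2 or standard M0 replicate 3.

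FLASH against standard protons tested the difference between the beams directly. Limma called 0 members, where 0% of all genes were called. At an unadjusted p below 0.05 there were 1 lower, Rps15a at -0.19 (unadjusted p = 0.0389), and 1 higher, Rpl39l at 0.54 (unadjusted p = 0.0433), both with an adjusted p of 1 in limma. The median difference was -0.07, with 75 of 81 members below 0. The 95% interval of the difference was -0.40 to 0.02 for Rps27, -0.30 to 0.08 for Rpl18 and -0.29 to 0.12 for Rpl8. For these 3 genes a difference between the beams as large as the FLASH change from non-irradiated cells lay outside the interval, and smaller differences lay inside it. For Rps15a the interval was -0.37 to -0.01, which holds its FLASH change of -0.34 and leaves out 0. Without the 5 libraries at odds the intervals were -0.39 to 0.09 for Rps27, -0.32 to 0.07 for Rpl18, -0.27 to 0.13 for Rpl8 and -0.38 to 0.01 for Rps15a, so that all 4 held 0. In that fit 0 members and 0% of all genes were called, and the median difference was -0.04. A call with one beam and not with the other is no difference between them by this test.

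The effect of irradiation was also taken within each state. In M2 3 members were called lower and 0 higher, where 3% of all genes were called (1.57% lower and 1.43% higher). At an unadjusted p below 0.05, for which no share of all genes is given, 46 were lower and 0 higher. The median was -0.32. Rpl14 was at 340.5, 321 and 358 CPM without irradiation, at 203, 271 and 207 CPM after FLASH and at 193, 273 and 246 CPM after standard protons, a log2 change of -0.56 ± 0.14 (SE), 0.678-fold, adjusted p = 0.027. Rps15a was at 355, 334 and 346, at 224, 258 and 232 and at 206, 313 and 243 CPM in the same groups, a log2 change of -0.50 ± 0.13 (SE), 0.708-fold, adjusted p = 0.0404. For both genes every irradiated M2 library was below every non-irradiated one. The first library of both irradiated groups is at odds with the M2 label. Without the 5 such libraries 2 members were called, where 7% of all genes were called, and the median was -0.24. Rpl14 was called (-0.45, adjusted p = 0.032) and Rps15a was not (-0.41, adjusted p = 0.0602). The count was 11 without standard M2 replicate 2, 8 without FLASH M2 replicate 2, 1 without standard M2 replicate 3, and 0 without any one of the 3 non-irradiated libraries, FLASH M2 replicates 1 and 3 and standard M2 replicate 1.

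In M0 and in M1 limma called 0 members, where 4.03% (1.32% higher and 2.71% lower) and 5.2% (1.94% higher and 3.26% lower) of all genes were called. At an unadjusted p below 0.05 there was 1 in M0, Rps9 at -0.27 (unadjusted p = 0.0224), with a median of -0.09. In M1 there were 2 higher and 4 lower, with a median of -0.04, which was 0.03 with equal column sums. Rps24 (-0.37), Rps27 (-0.41) and Rpl5 (0.43) were among them. Whether irradiation changed the IL-4 response was tested as an interaction, in which limma called 0 members and 0.0451% of all genes (0.0301% higher and 0.015% lower). All 4 members at an unadjusted p below 0.05 were lower, Rpl12 (-0.89), Rps26 (-0.46), Rps15a (-0.41) and Rpl32 (-0.38). The median interaction of the members was -0.24, with 76 of 81 below 0, beside 0.00 for all genes. In the interaction with LPS, limma called 0 members and 0.278% of all genes (0.105% higher and 0.173% lower), and at an unadjusted p below 0.05 only Rps24 (-0.41) stood out of the 81. A difference between states in the irradiation effect was therefore not shown. Without the 5 libraries at odds 0 members were called in M0 and 1 in M1, where 11.1% and 9.91% of all genes were called, with medians of -0.08 and -0.10. The member called in M1 was Rpl22l1, at -0.44 (adjusted p = 0.0155), against -0.12 (adjusted p = 0.848) with all libraries, and it was chosen after its values were seen. In that fit Rps9 was at -0.25 in M0, and Rps24 at -0.25, Rps27 at -0.41 and Rpl5 at 0.28 in M1. In the interactions with IL-4 and LPS 0 members were called, where 0.0455% and 2.04% of all genes were called. The IL-4 interaction then had a median of -0.16 and 0 members at an unadjusted p below 0.05, with Rpl12 at -0.91, Rps26 at -0.34, Rps15a at -0.34 and Rpl32 at -0.27, and Rps24 was at -0.31 in that with LPS.

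Paralogues are given beside their canonical partners. Rps27l, known as a target of p53, was at 73.9, 65.7 and 71.3 CPM in M0, 65.2, 75.5 and 67.8 CPM in M1 and 112, 100.5 and 88.6 CPM in M2 of non-irradiated cells. Its irradiation difference was 0.09 (adjusted p = 0.53), while Rps27 fell. With IL-4 Rps27l differed by 0.51 (adjusted p = 0.0604) and Rps27 by 0.00 (adjusted p = 0.997), and with LPS against IL-4 Rps27l was lower at -0.52 (adjusted p = 0.0239) where Rps27 was at 0.21 (adjusted p = 0.407). The difference between such partners was not tested. Rpl22l1 was at -0.34 (adjusted p = 0.195) and Rpl22 at -0.08 (adjusted p = 0.595) after irradiation. Rpl22l1 was called at -0.31 (adjusted p = 0.00156) without the 5 libraries at odds. Rpl7l1, which acts in ribosome assembly, rose with IL-4 (above), where Rpl7 was at 0.18 (adjusted p = 0.509), and after irradiation it was at -0.04 (adjusted p = 0.742) while Rpl7 fell. Rpl39l was too low to read, at 0 to 1.88 CPM.

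Of 11 members known for roles outside the ribosome, 2 were called lower after irradiation, where 6.69% of all genes were. Rpl5 was at 0.01 (adjusted p = 0.959) and Rpl11 at -0.18 (adjusted p = 0.145). Of the other binders of MDM2, Rpl23 was at -0.09 (adjusted p = 0.423) and Rpl26, which binds Trp53 mRNA, at -0.04 (adjusted p = 0.813). Rps19 was at -0.12 (adjusted p = 0.423), Rps25 at 0.00 (adjusted p = 0.986), Rpl13a, a part of the GAIT complex, at -0.05 (adjusted p = 0.685), Rpsa at -0.20 (adjusted p = 0.164) and the ubiquitin fusion Rps27a at -0.15 (adjusted p = 0.154). The 2 called lower were Rps3 and Rps6, as given above. In the same comparison Mdm2 rose by 0.73 ± 0.15 (SE, adjusted p = 0.00205), and Myc was at -0.10 (adjusted p = 0.864).

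Relative to the median member of each library, a scale that takes out the level the members share, the members with the widest spread over the 27 libraries included Rpl39l (SD 0.62 on the log2 scale), Rps4l (0.48), Rpl10a (0.44) and Rpl12 (0.41). Rpl39l and Rps4l are low, with a mean of 3.14 CPM for Rps4l. In the 22 libraries that follow their labels, the 7 M1 libraries did not overlap the 15 M0 and M2 libraries in 5 of 81 members, where 9.46% of all genes were separated in the same way, so the share was no larger in the members. These genes were picked from their values. Rpl10a was at -0.72 to -0.45 in M1 and at -0.02 to 0.66 in the others, around its own mean. Rps24 was at 0.20 to 0.89 in M1 and -0.40 to -0.01 in the others, and Rpl24 at 0.30 to 0.53 and -0.41 to -0.03. Rps20 and Rpl19 were the other 2. Of the 5 libraries at odds, Rpl10a was at -0.54 and -0.65 in those labelled FLASH M2 1 and standard M2 1 and at 0.49 and 0.33 in those labelled FLASH M1 1 and standard M1 1. By label, with all 27 libraries, 0 members and 0% of all genes were separated.

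**Figure D5:**
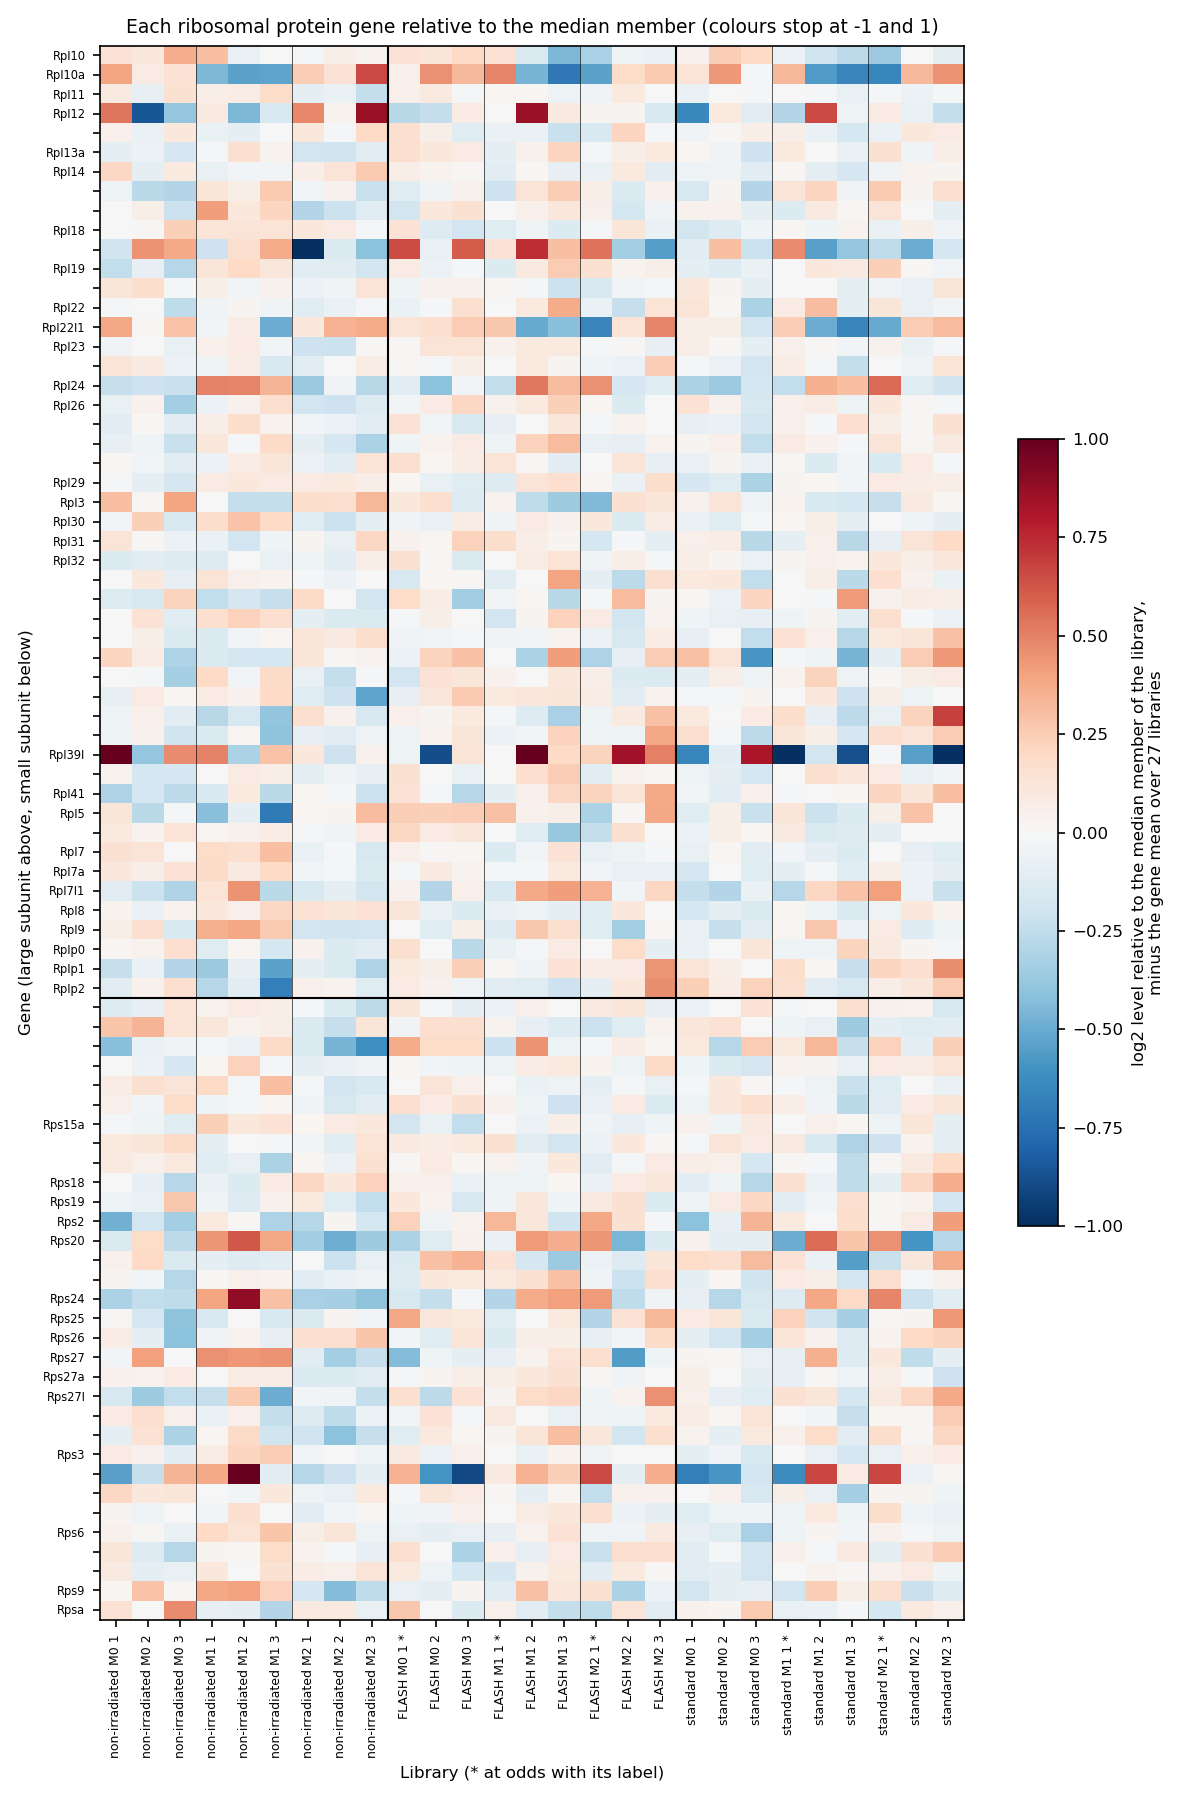
Log2 level of each of the 81 members (vertical axis) in each of the 27 libraries (horizontal axis), relative to the median member of the library and to the gene's own mean, with colours that stop at -1 and 1 and names for members whose log2 changes the text gives. Rpl10a is low and Rps24 high in the M1 libraries that follow their labels.

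Reads of ribosomal protein genes can be shared with their many processed pseudogenes, so the entries of named pseudogenes were summed. For Rps12 they held 99.1% of the combined signal, in 15 entries, while Rps12 itself had a mean of 2.41 CPM, so its values are uncertain. The share was 57.1% for Rps2, 50.5% for Rps23, 45.1% for Rpl10, 37.5% for Rpl31 and 30.2% for Rpl15. When members were summed with these entries, Rpl10 was no longer called after irradiation (-0.27, adjusted p = 0.0881) and Rps27, with 22.6% in Rps27rt, remained lower (-0.35, adjusted p = 0.00979). Rps2, chosen after its values were seen, was not called either way after irradiation, at 0.11 (adjusted p = 0.475) alone and -0.05 (adjusted p = 0.832) when summed. For Rpl10a the share was 8.01% and for Rpl14 3.81%.

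Cytosolic ribosomal protein genes outside the symbol pattern were tested in the same fit. Rps3a1 fell after irradiation (-0.23, adjusted p = 0.0324). Gnb2l1, a scaffold on the small subunit, was lower with LPS than with IL-4 (-0.55, adjusted p = 0.0265). Fau, a fusion that carries a small subunit protein, was at 0.12 (adjusted p = 0.569) with LPS, 0.05 (adjusted p = 0.872) with IL-4 and -0.11 (adjusted p = 0.308) after irradiation. Rpl36al was not called either, at -0.03 (adjusted p = 0.939) with LPS and 0.36 (adjusted p = 0.24) with IL-4. It was at -0.39 (adjusted p = 0.126) with LPS against IL-4 and -0.19 (adjusted p = 0.206) after irradiation.

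Other genes of ribosome production and translation were set beside the members. Of 60 genes of ribosome biogenesis (nucleolar assembly factors and RNA polymerase I factors), 33 rose and 0 fell with IL-4, with a median of 0.58 (limma). Of all genes, 4.93% were called higher and 4.9% lower. Rrs1 rose by 1.25 (adjusted p = 0.00512), Nop56 by 1.07 (adjusted p = 0.00782), and Nop58 and Fbl, its partners in the box C/D particle that methylates ribosomal RNA, by 0.87 (adjusted p = 0.00163) and 0.78 (adjusted p = 0.00711). The number of biogenesis genes rising was 14 without non-irradiated M0 replicate 2 or M2 replicate 1. It was 48 without the 5 libraries at odds, where 26.2% of all genes were called in either direction. With LPS 2 rose, Eif6 (0.71, adjusted p = 0.0143) and Noc4l (0.66, adjusted p = 0.0146), and 4 fell, among them Utp20 (-0.56, adjusted p = 0.0357) and Nat10 (-0.54, adjusted p = 0.0405). The called share of the 60 was below the 17.4% of all genes called with LPS. Without the 5 libraries at odds 7 rose and 13 fell with LPS, where 35% of all genes were called. Without non-irradiated M0 replicate 1 or M1 replicate 2 or 3, 1 rose and 0 fell. Against IL-4, 42 of 60 were lower with LPS, where 14.6% of all genes were called lower. Examples were Nop16 (-1.88, adjusted p = 0.000791) and Ppan (-1.80, adjusted p = 0.000409). Of 5 chaperones of ribosomal proteins, Grwd1 (1.02, adjusted p = 0.0498) and Heatr3 (0.61, adjusted p = 0.0473) rose with IL-4. Both calls were lost when any one of the 3 non-irradiated M0 libraries or of M2 replicates 1 and 2 was left out (adjusted p of 0.0789 to 0.192), and with equal column sums.

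After irradiation 4 of the 60 biogenesis genes fell and 0 rose, with a median of -0.01, a share near the 6.69% of all genes called lower. They were Sdad1 (-0.45, adjusted p = 0.000804), Tcof1 (-0.38, adjusted p = 0.0436), Npm1 (-0.28, adjusted p = 0.0319) and Ubtf (-0.24, adjusted p = 0.0172). When the 5 libraries at odds were left out, 13 fell and 2 rose, where 22.8% of all genes were called, and with equal column sums 10 fell. The number falling was 1 without non-irradiated M1 replicate 1, 2 without non-irradiated M0 replicate 3, M1 replicate 3 or M2 replicate 1, and 6 without FLASH M0 replicate 1 or M1 replicate 3. In M2 alone 7 of 60 fell, including Gar1 (-0.97, adjusted p = 0.00481) and Sdad1 (-0.75, adjusted p = 0.00449), where 1.57% of all genes were called lower. The M2 count was 12 without the 5 libraries at odds, where 7% of all genes were called in either direction, and 2 without non-irradiated M2 replicate 1. In M1 alone 2 of 60 rose, Wdr12 (0.80, adjusted p = 0.00872) and Nat10 (0.64, adjusted p = 0.0178), where 1.94% of all genes were called higher. Of 19 further translation genes whose mRNAs carry a TOP run, all were below 0 after irradiation. Their median was -0.15, the same as that of the members. The number called lower was 1, Naca (-0.25, adjusted p = 0.0252), a share near the 6.69% of all genes. The count was 0 without non-irradiated M1 replicate 3 or M2 replicate 1 or 2, 4 without M1 replicate 2 or with equal column sums, 3 without M2 replicate 3 or FLASH M1 replicate 3, 2 without standard M1 replicate 2 and 3 without the 5 libraries at odds. With IL-4 1 of the 19 rose, Eif3l (0.61, adjusted p = 0.0277), and with LPS 1, Eif3m (0.33, adjusted p = 0.0155). These shares were near the 4.93% of all genes called higher with IL-4 and below the 9.87% with LPS. Larp1, which binds TOP mRNAs, rose with LPS (0.87, adjusted p = 0.00232) and fell after irradiation (-0.29, adjusted p = 0.0233). Eif4ebp2, a repressor of cap-dependent translation, fell in both, at -0.66 (adjusted p = 0.00742) and -0.35 (adjusted p = 0.00373).

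Ribosomal proteins of the mitochondrion, which are encoded in the nucleus and make up a separate ribosome, had rises with LPS. Of 76 genes tested, 24 rose and 1 fell with LPS, where 9.87% of all genes were called higher and 7.54% lower. Their median was 0.32, beside -0.04 for the 81 cytosolic members. Mrpl19 rose by 1.18 (adjusted p = 0.0156) and Mrpl47 by 1.14 (adjusted p = 0.0104), and Mrps6 fell (-1.24, adjusted p = 0.00029). The number rising was 6 without non-irradiated M0 replicate 1 or M1 replicate 2 and 14 with equal column sums. It was 33 without the 5 libraries at odds, where 35% of all genes were called in either direction. With IL-4 12 rose and 0 fell, with a median of 0.39, where 4.93% of all genes were called higher. Among them were Mrps35 (0.98, adjusted p = 0.0475) and Mrps22 (0.94, adjusted p = 0.0051). The number with IL-4 was 35 without the 5 libraries at odds, where 26.2% of all genes were called in either direction. It was 2 without non-irradiated M0 replicate 2 or M2 replicate 1. After irradiation 2 of the 76 fell, a share below the 6.69% of all genes called lower. They were Mrpl47 (-0.45, adjusted p = 0.0357) and Mrps16 (-0.26, adjusted p = 0.0452), and the median of the 76 was 0.02. The number falling was 0 without any one of non-irradiated M0 replicate 3, M1 replicates 1 and 2, M2 replicates 1 and 2, FLASH M0 replicate 3, FLASH M2 replicate 2, standard M0 replicate 1 and standard M2 replicate 3, and 1 in 13 of the other fits with a library left out. Mrpl47 lost its call in 14 and Mrps16 in 22 of 37 alternative settings and leave-one-out fits.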

How the data were processed

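Bulk RNA sequencing (total RNA) of 27 libraries was used, grouped by the labels into 9 groups of 3. Per the submitters' processing notes, the authors used kallisto 0.46.1, R 4.0.5 and edgeR 3.36.0. GRCh38, a human build, is named there although the samples are mouse, and no coordinate was taken from the table. The deposited signal is TMM-scaled CPM per gene symbol on a linear scale, with column sums of 929338 to 1072650. Only 1 entry, which has no symbol, was left out. Read totals of 20.7 M to 25.8 M were recovered from the steps between low values, at which 97.8% of nonzero values (99.9% of those of the members) were whole to within 0.01 read. No test made for counts was run, since the rest were not.

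The 13297 genes that reached 1 CPM in 3 or more libraries were fitted on the log2(CPM + 0.5) scale in limma 3.58.1, under R 4.3.3 and statmod 1.5.0, as 9 group means, with variances moderated robustly along an intensity trend. Benjamini-Hochberg adjustment ran over all genes tested in each of 12 comparisons. Calls are at an adjusted p below 0.05. The script was tested on simulated data. Intervals are 95% intervals of the model. Pairing by replicate number was checked with all 27 libraries: of 36 same-number pairs each, 5, 2 and 2 had deviations correlated above 0.1. The deviations were from group means by label, which the 5 libraries at odds, all of replicate number 1, disturb. The check therefore cannot decide whether the numbers pair the libraries. Replicate number was left out of the model, and counts with a replicate block are given below. The highest correlation of 2 libraries was 0.985, and none were treated as duplicates.

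A library was at odds with its label when it was past 0.5 on an axis (mean log2 of 18 LPS or 18 IL-4 response genes) of the other stimulus, or did not reach 0.5 on that of its own. Named members are the up to 5 highest and 5 lowest called in each comparison, a list of paralogues and of members with other roles whatever their p, and the member nearest to its subunit's median. Other genes named are up to 2 called genes a direction of each gene list, those of smallest p, and Mdm2, Cdkn1a, Myc and Fau. Some genes that meet these rules are not reported here. Members and lists were chosen with earlier results of these data known. Alternatives were pseudocount 1, no filter, a filter at 5 CPM, median-of-ratios scaling, equal column sums, no trend, only the compared groups, a replicate block, and each library left out. Leaving out the 5 libraries at odds, replicate numbers 2 and 3 only, and members summed with named pseudogenes were chosen after seeing the data.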

Additional observations from a re-analysis of the deposited data

How the results depend on the processing

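Numbers of called members (limma) are given against those of the report. With equal column sums FLASH gave 21 (9), IL-4 4 (9), irradiation 1 (0) in M0, 17 (3) in M2 and 23 (14) over the mean of states, LPS 9 (3), LPS against IL-4 50 (31) and standard protons 5 (0). In that setting the share of higher genes among all called went from 32.8% to 14.2% in M0, from 37.3% to 59.5% in M1 and from 47.6% to 29.5% in M2 for irradiation, and the median of all genes moved to 0.15 in the interaction with LPS. Without a filter IL-4 gave 4 and irradiation in M2 1, and without trend and robust moderation IL-4 gave 5. With only the compared groups in the fit FLASH gave 5, IL-4 18, irradiation in M2 0 and LPS 7. This setting was not run for the mean irradiation effect, which uses all 9 groups. Without the 5 libraries at odds with their labels IL-4 gave 33, irradiation in M1 1, irradiation over the mean of states 23, LPS 12, LPS against IL-4 49 and standard protons 5. With replicate numbers 2 and 3 only FLASH gave 0, irradiation in M1 1, in M2 0 and over the mean of states 2, LPS 6 and standard protons 1. The cause was not tested.

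With a replicate block FLASH gave 5, IL-4 3, irradiation in M2 0 and irradiation over the mean of states 8. In the other comparisons the block kept the count within 1.5 times. Whether the numbers pair the libraries was not settled by the check under processing. Leaving out each replicate in turn gave 3 to 22 called members for FLASH, 0 to 3 for IL-4, 1 to 2 for LPS, 9 to 48 for LPS against IL-4, 0 to 11 for irradiation in M2, 5 to 25 over the mean of states and 0 to 6 for standard protons. It gave 0 to 0 for FLASH against standard, irradiation in M0 and M1 and both interactions. Of the named genes' values under all alternatives, 3083 kept direction and call, 496 lost the call, 41 gained it and 39 changed direction. The last belong to 10 values that were not called with all libraries. Fau with IL-4 (0.046) gave -0.0090 with equal column sums, -0.11 with replicate numbers 2 and 3 only and -0.035 to 0.15 when each replicate was left out. Fau with LPS (0.12) gave -0.029 with equal column sums and -0.018 to 0.26 when each replicate was left out. Myc after irradiation (-0.10) gave -0.21 to 0.0084 when each replicate was left out. Rpl26 after irradiation (-0.038) gave -0.088 to 0.032 when each replicate was left out. Rpl5 after irradiation (0.011) gave -0.016 with equal column sums and -0.025 to 0.048 when each replicate was left out. Rpl7l1 after irradiation (-0.039) gave 0.0099 with replicate numbers 2 and 3 only. Rps25 after irradiation (0.0041) gave -0.0029 with median-of-ratios scaling, -0.022 with equal column sums and -0.040 to 0.047 when each replicate was left out. Rps27 with IL-4 (-0.0027) gave 0.0041 with median-of-ratios scaling and -0.11 to 0.14 when each replicate was left out. Rpl22l1 after irradiation in M1 (-0.12) gave -0.30 to 0.0044 when each replicate was left out. Rps2 after irradiation (0.11) gave -0.048 when summed with named pseudogenes. Depth of 20.7 M to 25.8 M reads limits members near 1 CPM, such as Rpl39l.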
